A study of Caenorhabditis elegans with 2 samples.

Results

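The genes described here are the small nucleolar RNA (snoRNA) genes of Caenorhabditis elegans that stand outside protein-coding genes. They were all nuclear genes of biotype snoRNA in the Ensembl release 115 annotation of assembly WBcel235 that do not lie wholly within the span of a protein-coding gene. Of 346 nuclear snoRNA genes 130 met this rule, and the other 216 lay wholly within a coding gene. The members were 62 to 344 bp long, with a median of 135 bp. Of the 130, 124 overlapped no coding gene and 6 overlapped one in part.

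Chromatin was recovered, per the sample descriptions, with an anti-GFP antibody (another label field names che-1 as the antibody) from whole worms in which CHE-1 carries a GFP and FLAG tag at its C-terminal end. CHE-1 is a zinc finger protein needed for the identity of the ASE neurons, which taste salt. Both samples belonged to 1 group: strain OP677, with the unc-119(tm4063) allele on chromosome III and the transgene wgIs677, in late embryos of both sexes pooled, 6 hours after egg bleaching. They were labelled as biological replicates 1 and 2. No untagged strain or other group was analysed here, so nothing was tested between conditions, and signal that would also be recovered without the tag cannot be told apart from signal of the tagged protein. The recovered DNA came from whole embryos, so the cells in which a region was occupied cannot be told apart. The labels give no promoter for the transgene.

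The deposited data were 4 lists of genomic regions in build ce11, with no read counts, so the depth of the libraries is unknown. The lists of replicate 1, of replicate 2 and of both replicates together held 30000 regions each and included background regions. The fourth was the optimal set by irreproducible discovery rate (IDR), a procedure that compares the ranks of regions between replicates, with 791 regions, 770 of them nuclear. The score of a region is the authors' own value on a scale that is not stated, so it is not compared between lists and serves here to describe regions and give their rank in a list, with rank 1 the highest. A gene was counted when the summit of a region, the position of its peak as the authors gave it, lay within 100 bp of the gene.

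As background, snoRNAs guide chemical modification of other RNAs, mainly ribosomal RNA. Box C/D snoRNAs direct methylation of the ribose and carry a C box near one end and a D box near the other. Box H/ACA snoRNAs direct conversion of uridine to pseudouridine and end shortly after the letters ACA. Many animal snoRNAs are processed out of introns, whereas worms also hold snoRNA genes with promoters of their own. RNA polymerase III, the enzyme that makes transfer RNA (tRNA), uses 2 promoter elements that lie inside tRNA genes, the A box and the B box, which bind the factor TFIIIC, and it stops at runs of T. Promoters of small nuclear RNA (snRNA) genes use another element, bound by the SNAPc complex.

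The DNA just before 8 snoRNA genes with high scores is shown because letters of tRNA promoter elements recur in it. They come from the 14 genes with the highest scores, of which 9 carried the pair of box matches marked below. The sequences of the other 6 (ZK265.10, T02E1.9, T19B4.8, Y23H5B.10, T27A3.9 and Y39G10AR.24) are not shown, so 7 of the 8 shown and 2 of the 6 not shown carried the pair. Each sequence runs from 100 bp upstream of the annotated gene start to 20 bp inside the gene, on the gene's strand, and was read from the RefSeq genome of WBcel235. Capitals mark a match to the A box (TGGC, any 2 letters, then AGTGG) and, after it, one to the B box (GGTTCGA, any 2 letters, then CC), with at most 2 mismatches among the 9 fixed letters of each. In H09I01.2 the capitals mark the B box match alone. The box letters were chosen after these sequences had been seen. The windows on the plus strand were chrII:11960798-11960917 (W03C9.9), chrIV:7574022-7574141 (F32E10.10), chrIV:8252994-8253113 (H09I01.2) and chrII:8547109-8547228 (W01C9.6). Those on the minus strand were chrV:15873907-15874026 (T06C12.16), chrIV:9191314-9191433 (C46C2.8), chrII:8107251-8107370 (C41C4.11) and chrV:15191074-15191193 (Y75B12B.12).
W03C9.9: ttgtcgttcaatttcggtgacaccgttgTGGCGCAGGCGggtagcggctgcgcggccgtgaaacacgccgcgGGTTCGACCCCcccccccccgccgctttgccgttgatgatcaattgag
T06C12.16: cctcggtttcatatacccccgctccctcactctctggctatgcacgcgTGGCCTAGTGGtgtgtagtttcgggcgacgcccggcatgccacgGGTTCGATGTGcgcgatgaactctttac
F32E10.10: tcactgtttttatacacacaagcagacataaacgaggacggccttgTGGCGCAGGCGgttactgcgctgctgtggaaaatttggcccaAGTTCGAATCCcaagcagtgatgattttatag
H09I01.2: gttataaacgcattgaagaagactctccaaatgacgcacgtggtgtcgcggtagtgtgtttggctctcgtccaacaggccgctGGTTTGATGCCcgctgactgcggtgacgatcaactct
C46C2.8: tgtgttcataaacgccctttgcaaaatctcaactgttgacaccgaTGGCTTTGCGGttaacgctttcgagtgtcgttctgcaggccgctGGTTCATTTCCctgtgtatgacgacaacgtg
C41C4.11: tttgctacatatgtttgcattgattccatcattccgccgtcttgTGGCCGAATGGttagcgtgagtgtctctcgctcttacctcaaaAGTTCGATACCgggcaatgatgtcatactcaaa
Y75B12B.12: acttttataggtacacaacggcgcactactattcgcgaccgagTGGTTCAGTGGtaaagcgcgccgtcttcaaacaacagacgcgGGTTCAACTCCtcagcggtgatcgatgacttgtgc
W01C9.6: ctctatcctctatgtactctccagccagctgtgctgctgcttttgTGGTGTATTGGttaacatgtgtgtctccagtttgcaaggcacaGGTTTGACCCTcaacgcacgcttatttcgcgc

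For contrast, 3 further windows are shown in the same way. C53B7.8 (chrX:6867838-6867957, plus strand) carried the pair but had one of the lowest scores among genes of the IDR set. Y59E1B.14 (chrX:1891409-1891528, plus strand) carried both boxes with 0 mismatches, 43 bp apart, and had no region in any list. T26A8.6 (chrIV:8428720-8428839, minus strand) had neither box but held the letters TGTCGGC, in capitals, a run noticed before other small RNA genes.
C53B7.8: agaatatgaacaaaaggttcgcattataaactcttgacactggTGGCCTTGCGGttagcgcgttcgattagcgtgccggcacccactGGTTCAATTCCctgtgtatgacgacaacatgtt
Y59E1B.14: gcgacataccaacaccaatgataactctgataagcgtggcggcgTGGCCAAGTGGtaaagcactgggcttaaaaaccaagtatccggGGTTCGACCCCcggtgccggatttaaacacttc
T26A8.6: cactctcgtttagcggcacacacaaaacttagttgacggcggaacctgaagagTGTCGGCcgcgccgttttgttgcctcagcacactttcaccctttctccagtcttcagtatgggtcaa

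The gene bodies also carried letters of known snoRNA classes. W03C9.9 (chrII:11960898-11960959, plus strand, 62 bp) is shown as an example with C box and D box letters in capitals. Y53F4B.48 (chrII:15165894-15166028, minus strand, 135 bp) is shown as an example that ends in ACA, in capitals, 3 letters before its annotated end.
W03C9.9: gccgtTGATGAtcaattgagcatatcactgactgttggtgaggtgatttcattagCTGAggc
Y53F4B.48: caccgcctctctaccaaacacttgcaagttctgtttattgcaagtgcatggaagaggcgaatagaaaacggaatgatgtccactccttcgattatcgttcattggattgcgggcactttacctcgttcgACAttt

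Regions of the IDR set lay at 24 of the 130 snoRNA genes (18.5%, exact binomial 95% interval 12.2 to 26.2%). Over all 46890 nuclear genes the share was 1.88%. With a window of 50 bp the count was 14 of 130 (10.8%), against 1.64% of all nuclear genes. In the list of both replicates 55 members had a region (42.3%), against 25.8% of all nuclear genes. In the list of replicate 1 the count was 49 (37.7%, against 26.5%), and in that of replicate 2 it was 44 (33.8%, against 26.6%). The intervals of the members' shares were 33.7 to 51.3%, 29.4 to 46.6% and 25.8 to 42.7% in these lists, so the background lay below the interval in the first and second and inside it in the third. Coding genes, which are far longer, reached 43.4% in the list of both replicates. A region was present in the list of both replicates and in each replicate's list at 36 members, and 69 members had none in any list. Intervals cover counting error over genes only, and neighbouring or duplicated genes are not independent.

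All 24 members of the IDR set had their summit within 100 bp of the annotated gene start, where the share over all nuclear genes was 1.09%. Of the 216 snoRNA genes within coding genes, 30 had an IDR summit as close to the start (13.9%, interval 9.57 to 19.2%), and the intervals of both snoRNA classes overlapped. The share was 35.1% of 612 tRNA genes, 5.43% of 129 snRNA genes, 0.285% of 19973 protein-coding genes and 0.693% of other non-coding genes. Differences between classes were not tested.

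**Figure D1:**
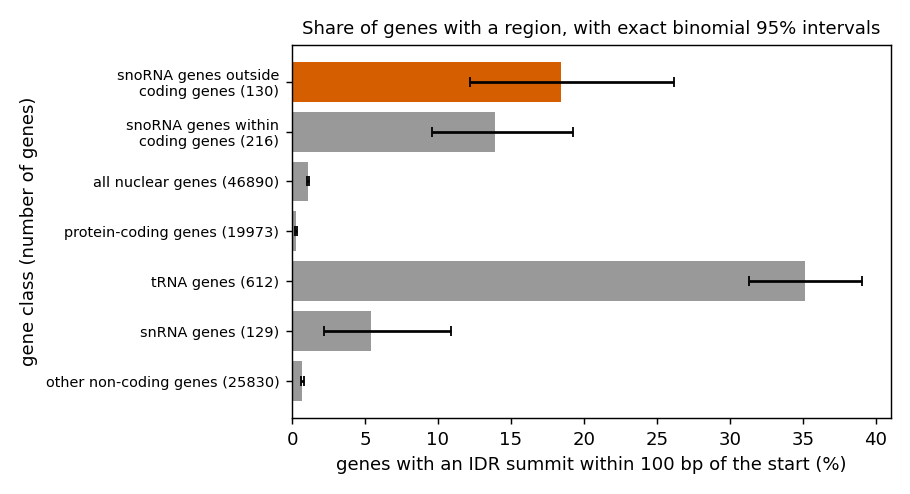
Bars give the percentage of nuclear genes of each class with an IDR summit within 100 bp of the annotated gene start, with the number of genes in parentheses and exact binomial 95% intervals as whiskers. The snoRNA genes outside coding genes stood at 18.5%, above coding genes at 0.285% and below tRNA genes at 35.1%.

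The member with the highest score was W03C9.9, at a region on chrII:11960559-11961113. It scored 1683 in the list of both replicates (rank 6), 951.9 in replicate 1 (rank 7) and 732.5 in replicate 2 (rank 10). T06C12.16, at chrV:15873726-15874211, scored 1300.0 (rank 13), 740.5 (rank 16) and 557.8 (rank 15) in the same order of lists. ZK265.10, at chrI:8259366-8259794, scored 1274 (rank 15), 770.2 (rank 14) and 502.8 (rank 17). These 3 genes were thus among the highest 17 regions of 30000 in every list, mitochondrial regions included. T06C12.16 and W03C9.9 carry C and D box letters, and ZK265.10 carries C box letters alone.

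T02E1.9, at chrI:8224208-8224596, scored 909.5 in the list of both replicates (rank 24), 528.6 in replicate 1 (rank 24) and 383.6 in replicate 2 (rank 20). F32E10.10, at chrIV:7573881-7574267, scored 726.1 (rank 33), 405.6 (rank 37) and 314.4 (rank 31). H09I01.2, at chrIV:8252839-8253222, scored 703.4 (rank 36), 407.0 (rank 34) and 296.8 (rank 37). Within each of these genes the 3 ranks differed by 6 at most. H09I01.2 carries the letters of a box C/D snoRNA, while T02E1.9 and F32E10.10 carry C box letters alone. T19B4.8, at chrI:5706840-5707189, scored 657.0 (rank 40), 385.6 (rank 43) and 270.5 (rank 47). C46C2.8, at chrIV:9191180-9191533, scored 631.8 (rank 44), 348.0 (rank 53) and 283.1 (rank 41). C41C4.11, at chrII:8107106-8107477, scored 588.3 (rank 55), 345.5 (rank 54) and 245.9 (rank 66). C46C2.8 and C41C4.11 carry C and D box letters, C46C2.8 also ends in ACA, and T19B4.8 carries D box letters alone.

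Y23H5B.10, at chrI:2514200-2514516, scored 508.0 in the list of both replicates (rank 75), 296.1 in replicate 1 (rank 70) and 210.6 in replicate 2 (rank 85). Y75B12B.12, at chrV:15190975-15191253, scored 499.7 (rank 77), 264.5 (rank 89) and 235.5 (rank 72). T27A3.9, at chrI:6105615-6105952, scored 479.6 (rank 84), 283.2 (rank 78) and 194.3 (just past rank 100). The first of these is 144 bp long and holds none of the snoRNA box letters sought, the second holds C and D box letters, and the third C box letters alone. The next 8 genes by rank were Y39G10AR.24, W01C9.6, F30H5.4, ZK643.9, Y53F4B.48, F12F6.11, T10B9.11 and K02C4.8, at ranks 88 to 219 and scores 470.1 to 266.8 in the list of both replicates. Together with those above they make 20 genes, which held ranks 7 to 267 in replicate 1 (scores 136.4 to 951.9) and 10 to 205 in replicate 2 (scores 125.2 to 732.5).

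After these 20 genes came the largest step in rank between consecutive genes of the IDR set, from 219 to 437, and 4 genes lay below it. C36E8.11 scored 172.0 in the list of both replicates (rank 437), 100.3 in replicate 1 (rank 429) and 65.91 in replicate 2 (rank 670). F59C6.15 scored 154.5 (rank 510), 85.57 (rank 572) and 70.2 (rank 570). C53B7.8 scored 150.2 (rank 533), 87.46 (rank 551) and 49.18 (rank 1681). The replicates thus ranked C53B7.8 furthest apart of these 3. T26A8.6 scored 146.5 in the list of both replicates (rank 561) and 69.63 in replicate 2 (rank 582), and had no region within 100 bp in the list of replicate 1. Each of these 4 regions was 484 bp wide, the most common width of the IDR set. Of the 20 genes above the gap 1 (K02C4.8) had a region of that width.

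**Figure D2:**
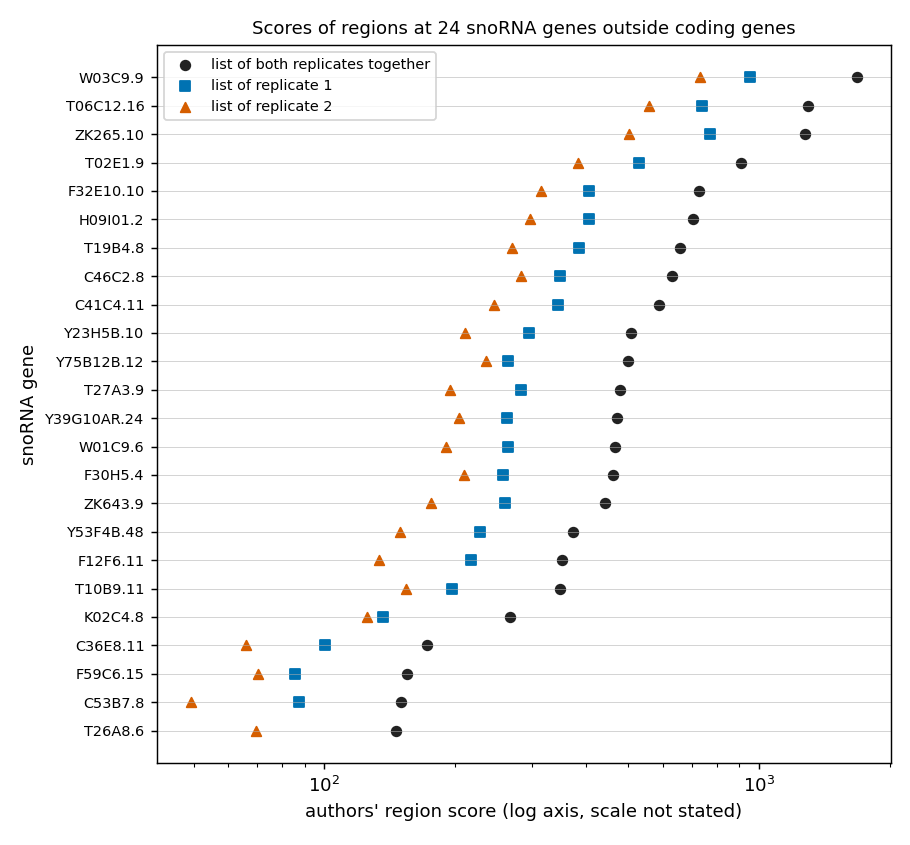
Points give the authors' score (log axis, scale not stated) of the best region within 100 bp of each of the 24 snoRNA genes of the IDR set, in the list of both replicates together (circles), of replicate 1 (squares) and of replicate 2 (triangles). Genes are ordered by their score in the list of both replicates, which shares its reads with the replicate lists, and T26A8.6 has no square because the list of replicate 1 held no region there.

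The members' scores in the IDR set ran from 146.5 to 1683 with a median of 474.9. The median of the 770 nuclear IDR regions was 181.7, and the lowest score of the set was 127.2. Members made up 9 of the first 50 nuclear IDR regions, 16 of the first 100 and 20 of the first 200. Of the snoRNA genes within coding genes, 14 lay at the first 50 regions, 18 at the first 100 and 24 at the first 200. These last counts are of genes, and C51F7.3 and C51F7.4 shared a region. Counts for other classes of gene are not given here.

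Just outside the IDR set stood ZK20.9, which scored 121.5 in the list of both replicates (rank 895), 78.26 in replicate 1 (rank 717) and 65.47 in replicate 2 (rank 685). Its summit was at -68 bp in the list of both replicates and -69 bp in replicate 2, but the value of replicate 1 belongs to another region, with its summit 159 bp past the gene start. D2021.6 scored 111.3 (rank 1107), 63.18 (rank 1212) and 51.41 (rank 1430), with its summit 48 bp inside the gene. F37F2.4 scored 101.9 (rank 1391), 41.89 (rank 5307) and 57.65 (rank 959), so its replicates ranked it far apart. T08B6.64 scored 91.83 (rank 1959), 55.57 (rank 1873) and 36.49 (rank 4706). K02A11.12 scored 87.17 (rank 2320), 46.15 (rank 3769) and 43.49 (rank 2523), with summits at -26, 94 and -98 bp in the 3 lists. None of these 5 genes carried the pair of box letters, and T08B6.64 held TGTCGGC. Of the 106 members outside the IDR set, 31 had a region in the list of both replicates, at ranks 895 to 29960 with a median of 10043.

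Summits lay upstream of the gene. In the list of both replicates 23 of the 24 summits were upstream of the annotated start and 1, at C53B7.8, was 7 bp inside the gene, and the median position was -48.5 bp from the start. In replicate 1 the best summits were upstream at 22 genes and inside at 1, and in replicate 2 they were upstream at 22 and inside at 2. At the 20 genes above the gap all summits were upstream, from -93 bp (W03C9.9) to -25 bp (C46C2.8). The summits of the replicates differed there by a median of 7 bp and at most 31 bp, and at 12 of the 20 by 10 bp or less. At C36E8.11 the replicates placed the summit on opposite sides of the start, at -72 bp in replicate 1 and 34 bp inside the gene in replicate 2. Of the 31 members with a region outside the IDR set, 19 had the summit upstream, 8 inside and 4 downstream.

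A second IDR entry lay within 100 bp downstream of 3 of the genes. At W03C9.9 it had the same span as the first entry and a summit 152 bp past the gene start, with a score of 144.3 (rank 586). At W01C9.6 it was chrII:8547123-8547606, with a score of 156.1 (rank 497). At ZK643.9 it was chrIII:8937656-8938139, with a score of 160.9 (rank 476). Members therefore accounted for 27 entries of the IDR set.

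**Figure D3:**
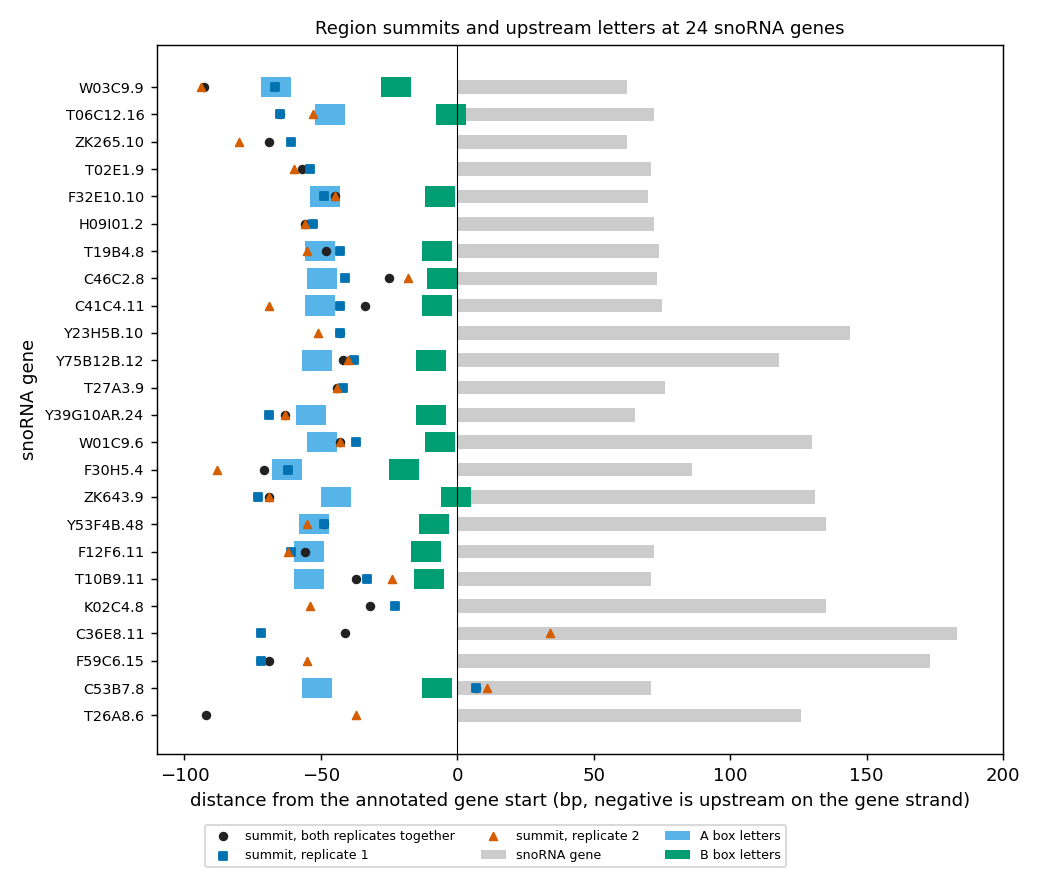
Each row is one of the 24 snoRNA genes of the IDR set, by falling score, with the gene in grey, the A box and B box letters in blue and green where both were found, and the region summits of the 3 lists as points. Distance is in bp from the annotated start, negative upstream on the gene's strand, and above the lowest 4 rows every summit lies upstream.

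The pair of A box and B box letters was sought on the gene's strand from 100 bp upstream of the start to 10 bp inside, with box starts 20 to 70 bp apart. It was found at 15 of the 24 genes of the IDR set (62.5%), at 14 of the 20 above the gap, and at 2 of the 106 other members (1.89%). Among snoRNA genes within coding genes it was found at 17 of the 31 with an IDR region (54.8%) and at 5 of the 185 without (2.70%). Over all genes it was found at 17 of the 130 members (13.1%) and 22 of the 216 genes within coding genes (10.2%), so its frequency was similar in both snoRNA classes. The counts depend on the mismatch limit, which was chosen after seeing the data. With 1 mismatch per box the pair was found at 5 of the 24 genes and 1 of the 106, and with 3 at 20 of 24 and 17 of 106. With 2 mismatches and windows of the same length it was found at 16 of 19973 coding genes (0.0801%), at 0 of 129 snRNA genes and at 1 of 612 tRNA genes, whose own boxes lie inside the gene. The 6 genes above the gap without the pair each held 1 of the boxes. They were ZK265.10 and K02C4.8 with A box letters, and T02E1.9, H09I01.2, Y23H5B.10 and T27A3.9 with B box letters.

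In the 15 genes the A box started at -72 to -50 bp from the annotated start and the B box at -28 to -6 bp. The box starts were 42 to 44 bp apart, with a median of 44 bp. At the 17 snoRNA genes within coding genes with an IDR region and the pair, the A box started at -66 to -45 bp. Their B box started at -23 to -6 bp, and their box starts were 32 to 51 bp apart, with a median of 43 bp. Inside the 209 tRNA genes with an IDR region and both sets of letters the spacing was 42 to 56 bp, with a median of 43 bp. Summits at the 15 snoRNA genes lay at a median of 4 bp downstream of the centre of the A box, with a range of -26 to 59 bp, and 8 of the 15 lay between the box centres. At the 17 genes within coding genes the median was 6 bp downstream, with a range of -18 to 64 bp, and 10 lay between the centres. At the tRNA genes the median was -1 bp from the centre of the A box, with a range of -104 to 150 bp, and 71 of the 209 summits lay between the box centres. The ranges cover 15 and 209 genes, and a range tends to grow with the number of genes, so they do not compare the spread. The medians at the 15 snoRNA genes and the tRNA genes differed by a few bp, while the share between the centres was lower at the tRNA genes. These differences were not tested.

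Read from the letters to the regions, 15 of the 17 members with the pair were in the IDR set (88.2%), at a median rank of 89.5 in the list of both replicates over the 16 with a region. The box letters and mismatch limit were chosen after seeing the data, so this share may in part reflect that choice. Of the 14 members with TGTCGGC on the gene's strand 2 were in the IDR set (F59C6.15 and T26A8.6), and 5 had a region in the list of both replicates, at ranks 510 to 2774. Of the 99 members with neither, 7 were in the IDR set (7.07%). Among genes within coding genes the counts were 17 of 22 with the pair, 2 of 9 with TGTCGGC and 12 of 185 with neither. The letters TGTCGGC stood before 10.8% of members, 4.17% of snoRNA genes within coding genes, 4.65% of snRNA genes and 0.260% of coding genes. The exceptions among members with the pair were both on chromosome X. K09E9.5 scored 75.4 (rank 3838), 31.48 (rank 12906) and 38.82 (rank 3794) in the 3 lists, and Y59E1B.14 had no region.

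**Figure D4:**
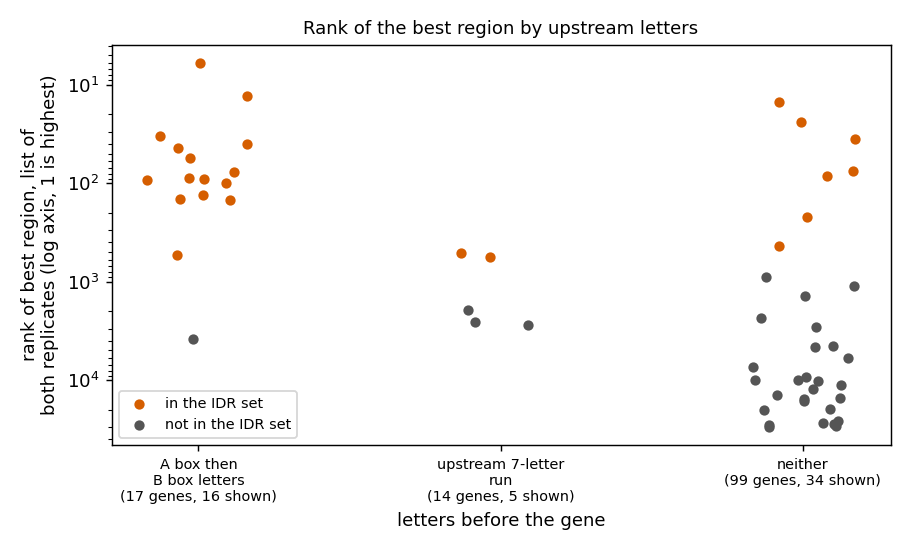
Points give the rank (log axis, 1 highest) of the best region within 100 bp in the list of both replicates, for members with the A box and B box pair, with the upstream run of 7 letters (TGTCGGC) or with neither, in orange for genes of the IDR set. Genes with no region are not drawn (1 of 17, 9 of 14 and 65 of 99), and 15 of the 16 points of the first column are orange. The letters were chosen after the sequences had been seen.

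Other letters were sought on both strands in the 100 bp upstream. GTTCGA, which overlaps the B box, was present before 10 of the 24 genes of the IDR set, 3 of the 106 others and 2.96% of coding genes. GAAACC or GAAGCC, the core described for CHE-1 sites in ASE neurons, was present before 3 of 24, 9 of 106 and 6.00% of coding genes. CGCACA was present before 3 of 24, 5 of 106 and 2.07% of coding genes. TATAA, a core promoter element, was present before 5 of 24, 25 of 106 and 30.5% of coding genes. Within 50 bp of the summits the CHE-1 core was present at 2 of the 24 regions (8.33%) and at 48 of 770 nuclear IDR regions (6.23%). GTTCGA was present there at 6 of the 24 and 120 of 770 (15.6%), CGCACA at 3 (12.5%) and 105 (13.6%), and TATAA at 5 (20.8%) and 95 (12.3%). Upstream of the genes GTTCGA had the widest gap between the 24 and the 106, and the gap between the 24 regions and nuclear IDR regions in general was smaller. Median G and C content upstream was 53.5% before the 24 genes and 45.0% before the 106.

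The gene bodies were compared by counts. The 24 genes of the IDR set and the 106 other members also differed in annotation identifier. Of the 24, 2 had one above WBGene00100000, and of the 106, 93 did, a limit chosen after the values were seen. The contrasts between the 24 and the 106 below were not separated from that difference. Annotated lengths above the gap were 62 to 144 bp with a median of 73.5 bp, against a median of 154 bp for members outside the IDR set. C box letters (TGATGA with at most 1 mismatch in the first 20 bp) together with D box letters (CTGA in the last 15 bp) were held by 10 of 24 (41.7%) and 6 of 106 (5.66%). ACA at 3 bp before the end was held by 6 of 24 and 4 of 106 (3.77%). Neither the C and D box letters together nor ACA were held by 10 of 24 and 96 of 106, which include genes with C box or D box letters alone. C box letters, with or without the D box, were held by 14 of 24 and 15 of 106. D box letters, with or without the C box, were held by 14 of 24 and 14 of 106. A run of TTTT in the 30 bp after the gene end followed 19 of 24 (79.2%) and 38 of 106 (35.8%). It followed 98.9% of tRNA genes and 49.4% of coding genes. Within coding genes it followed 28 of the 31 snoRNA genes with an IDR region and 98 of the 185 without. The contrast in TTTT was thus not confined to the members. In the same 2 groups, C and D box letters together were held by 6 of 31 and 22 of 185. ACA at that position was held by 12 of 31 and 36 of 185.

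The summits at these genes were set against coding promoters. The same share over all nuclear IDR regions is not given here, so the counts below are not read as high or low. Of the 24 summits 9 lay within 1 kb upstream of a coding transcript start and 15 did not, and the nearest coding start was 161 to 16220 bp away, with a median of 1206.5 bp. It was over 1 kb away at 13 genes, over 2 kb away at 6, and on the same strand at 12. The coding gene was nearest at Y75B12B.12, whose summit lay 161 bp upstream of Y75B12B.11. The summit of C36E8.11 lay 280 bp upstream of tif-1A, which encodes an initiation factor of RNA polymerase I, and that of K02C4.8 lay 283 bp upstream of K02C4.2. The other promoters were those of chst-1 (a carbohydrate sulfotransferase, 333 bp from C41C4.11's summit, which also lay at the promoter of C41C4.9), gst-27 (a glutathione S-transferase, 346 bp from that of Y53F4B.48) and sre-23 (a chemoreceptor gene, 628 bp from that of ZK265.10). They also included T02E1.2 (463 bp from T02E1.9's summit), F59C6.18 (791 bp from that of F59C6.15) and ZK1321.4 (929 bp from that of T10B9.11).

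At W03C9.9 and T06C12.16, the members with the highest scores, the nearest coding starts were those of W03C9.1 (1323 bp) and str-56, a chemoreceptor gene (1418 bp). The farthest were at Y23H5B.10 (16220 bp), F30H5.4 (9484 bp) and H09I01.2 (6966 bp). No summit of the 24 was at a tRNA gene, and the nearest tRNA gene was 1036 bp or more from each of these members. At 7 of the 24 the summit was also within 100 bp of another non-coding gene, each annotated as ncRNA. That share over all nuclear IDR regions is not given here either. Of the 31 members with a region outside the IDR set, 15 had the summit at a coding promoter. The same share over all regions of the list of both replicates is not given here.

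By chromosome, the 24 genes were 7 of 30 members on I, 6 of 28 on II, 3 of 10 on III, 5 of 23 on IV, 2 of 16 on V and 1 of 23 on X. All nuclear IDR regions numbered 126 on I, 116 on II, 130 on III, 115 on IV, 90 on V and 193 on X. Differences between chromosomes were not tested. The member on X, C53B7.8, was one of the 4 below the gap. Several members are near copies of each other, and reads from copies may not be told apart. C53B7.8 and C46C2.8 shared 94.5% of their gene letters but 65.0% of the 100 bp upstream, and their ranks in the list of both replicates were 533 and 44. K09E9.5 and ZK643.9 shared 94.7% and 68.0%, with ranks 3838 and 100. F59C6.15 shared 97.1% with Y67A10A.14 and 94.9% with F25H2.15, and T26A8.6 shared 85.7% with T08B6.64. In the first 2 pairs the copies thus differed by more upstream than in the gene, and the region with the higher score was at a gene off chromosome X.

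Genes of the snoRNA pathway itself were counted from lists chosen with earlier results of these data known. A coding gene counted when a summit lay within 1 kb upstream of a transcript start, which held for 2.45% of coding genes in the IDR set and 34.2% in the list of both replicates. Of 10 matched genes for core proteins and assembly factors of snoRNA particles, 2 were in the IDR set. In the list of both replicates 9 had a region, among them dao-5, ruvb-1 and ruvb-2, which are not core proteins. These 2 were fib-1, the methyltransferase of box C/D particles (score 158.4, rank 486), and nola-3, a protein of H/ACA particles (score 134.9, rank 693). The gene without a region was snu-13, a protein that binds box C/D RNA. nol-56 (rank 3776), nol-58 (rank 4595) and dkc-1, the pseudouridine synthase (rank 5556), were outside the IDR set. A list of 14 genes for factors of small RNA promoters included cbp-1, a histone acetyltransferase entered as an ordinary coactivator. Only cbp-1 was in the IDR set (score 201.4, rank 347), so no factor specific to small RNA promoters was. In the list of both replicates 5 of the 14 had a region, cbp-1 among them. SNAPc subunit genes with a region were snpc-1.1 (rank 12974), snpc-3.4 (rank 3801) and snpc-4 (rank 11387), and the RNA polymerase III subunit gene rpc-2 stood at rank 8415.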

How the data were processed

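The authors deposited narrowPeak region lists for 2 biological replicates of 1 group. Per the labels and deposited notes, regions were called on each replicate and on both together, each against a control, and an IDR set was derived. Which caller, aligner and IDR threshold were used is not given in the sources used here. Column 7, the deposited score of each region, ranked regions within a list, and column 9, a deposited score of unstated scale, ranked them in an alternative. The summit offset is deposited in bp from the region start. Depth is unknown. The ce10 lists were not used.

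From these files, summits were set against Ensembl release 115 genes of WBcel235 (ce11), coordinates 1-based. A gene was called when a summit lay within 100 bp, and its region with the highest score was used. All members in the IDR set are named, the 12 highest with full values, as are the 5 highest outside it. Letters were sought in the RefSeq genome. Shares carry exact (Clopper-Pearson) 95% intervals. The matching of summits to genes was checked on simulated data. The members, lists and letters were chosen with earlier results of these data known, and the box and TGTCGGC letters after the sequences had been seen. The design has 1 group and allows no test. Python 3.11.15, numpy 2.4.6, pandas 2.3.3, scipy 1.17.1, matplotlib 3.10.9 and Biopython 1.88 were used.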

Additional observations from a re-analysis of the deposited data

How the results depend on the processing

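The count of 24 snoRNA genes in the IDR set fell to 14 with a window of 50 bp, where 85.7% of summits were upstream. It was 24 with a window of 200 bp (2.32% of all nuclear genes), 26 when any overlap of a region counted (2.70%), and 20 among the 395 strongest regions of the IDR set (1.18%), which held none of the 4 genes below the gap. Without replicate 1 and without replicate 2, taking the 791 highest regions of the remaining list, it was 24 each time (1.93% and 1.89% of all nuclear genes), of which 23 were the same genes. C53B7.8 was lost in the first case and T26A8.6 in the second, and ZK20.9 was gained in both, through a region upstream in replicate 2 and another one downstream in replicate 1. Among members that overlap no coding gene it was 21 of 124. The median distance from the start ranged from -55.0 to -41.5 bp over these settings, and the share of summits upstream from 85.7 to 95.8%. The median rank of the 55 members with a region was 1959 in the list of both replicates, 626 over 44 members without replicate 1 and 1212 over 49 without replicate 2. The pair of boxes, sought with 1 and with 3 mismatches per box in alternatives chosen after seeing the data, was found before 0.00501% and 3.79% of coding genes. No paired analysis was possible because there was 1 group and no test.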

Other observations

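Identifiers of the annotated genes were counted on either side of a limit chosen after their values were seen, without a test. Of the 24 snoRNA genes of the IDR set, 22 had an identifier below WBGene00100000 and 2, C36E8.11 and T26A8.6, had one above it. Of the 106 other members, 13 had one below and 93 above. C36E8.11 and T26A8.6 both lay below the gap in rank. The snoRNA genes within coding genes that had an IDR region also had identifiers below the limit, except C51F7.4 and C05D2.15. Those without an IDR region had identifiers on both sides, so the pattern was not confined to the members. Contrasts in length and letters between the 24 and the 106 were not separated from this split.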
